A study of Mus musculus with 2 samples.

Results

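Endothelial, blood-brain barrier and mural (pericyte and smooth muscle) genes were examined as 37 named genes of the 55536 in the gene tables, found by their GENCODE M21 symbol in both libraries. They were read as 13 genes of endothelium in general, 4 genes of particular vessel beds (Flt4, Aplnr, Plvap and Lyve1), 9 barrier genes, 6 genes for vascular growth factors and 5 mural genes. The libraries hold polyadenylated RNA of whole neural tube from healthy B6NCrl mouse embryos at embryonic day 12.5, with males and females pooled. The single group has 2 biological replicates: replicate 1 pooled 120 embryos and replicate 2 pooled 88, and the labels state no treatment or mutation. Each library began with 10 ng of RNA, copied with oligo-dT primers, cut by tagmentation and spiked with synthetic ERCC RNAs. With 1 group, nothing was compared between conditions, and every spread below is that of these 2 pools.

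Blood vessels grow into the neural tube from a surrounding plexus, drawn by VEGF from neural cells that acts on receptors of the endothelial surface. Angiopoietins act on the Tie receptors, PDGF-B from endothelium recruits pericytes through Pdgfrb, and Wnt7 ligands of neural progenitors, sensed through Reck and Adgra2, set up the barrier program of brain and spinal cord vessels. That program is known for sealing junctions with claudins, adding transporters and losing the leaky-vessel protein Plvap as vessels mature.

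Replicate 1 held 33529531 and replicate 2 held 35461403 estimated read counts, of which the 37 genes took 27512 and 29931 (0.0846% and 0.0869% of the counts on genes). Levels are TPM, a unit of transcript abundance corrected for transcript length, so that genes can be compared with each other. A read in a transcript of 1 kb was worth 0.0477 TPM in replicate 1 and 0.0462 in replicate 2. The tissue label fitted its markers, which were chosen later. Neuronal Tubb3 was at 952.89 and 981.58 TPM and progenitor Sox2 at 38.89 and 37.88 TPM in replicates 1 and 2. The Hox gene Hoxc8, checked with them, differed more between the libraries, at 34.81 and 51.74 TPM. In bulk RNA, fewer cells of a type and less RNA per cell cannot be told apart.

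At 1 TPM or more in both libraries, 35 of the 37 genes were detected, beside 28.5% of all genes and 60.9% of the 22028 protein-coding genes. The exceptions were the barrier transporter genes Abcb1a and Slco1a4. At 10 TPM or more in both there were 18, beside 17.3% of all genes and 41.7% of protein-coding genes, and 10 of the 18 were general endothelial genes. The median of the general endothelial genes was 17.3 ± 1.7 TPM (SD, n = 2), that of the mural genes 8.52 ± 0.226, that of the growth factors 3.00 ± 0.336 and that of the barrier genes 2.26 ± 0.0849 TPM. The 4 genes of particular vessel beds had a median of 17.4 ± 1.44 TPM.

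**Figure D1:**
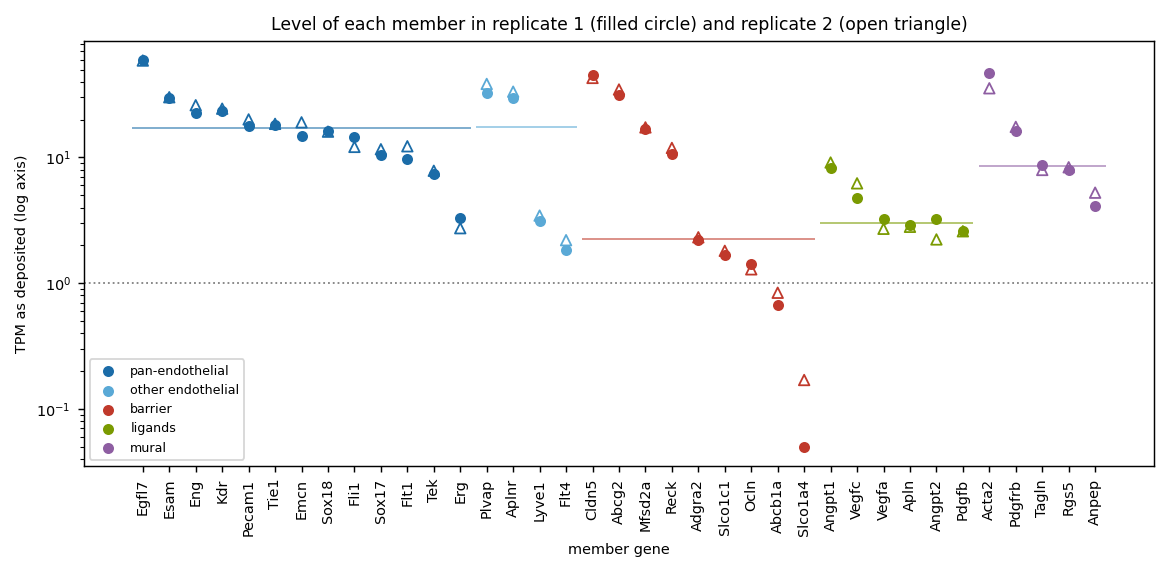
TPM of each of the 37 genes on a log axis, with a filled circle for replicate 1 and an open triangle for replicate 2; colours are the gene groups, horizontal lines the group medians and the dotted line 1 TPM. The general endothelial genes spread around 17.3 TPM, while the barrier genes run from 44.0 TPM (Cldn5) down to 0.11 TPM (Slco1a4).

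The receptor genes of general endothelium were all present, with Kdr above the other VEGF and the Tie receptor genes. Kdr, the main signalling receptor for VEGF-A, was at 23.24 TPM in replicate 1 and 24.44 TPM in replicate 2. Flt1, a receptor that binds VEGF-A and also yields a secreted decoy, was at 9.77 and 12.28 TPM, and the VEGF-C receptor gene Flt4 at 1.85 and 2.20 TPM. Kdr thus exceeded Flt1 by 1.12 ± 0.18 (SD, n = 2) on the log2 scale of TPM, and exceeded Flt4 by 3.56 ± 0.13. The Flt1 level also counts its noncoding and truncated transcripts, which are described below. The angiopoietin receptor gene Tek was at 7.36 and 7.84 TPM and its partner Tie1, a related receptor without a firmly assigned ligand, at 18.19 and 18.51 TPM. Tie1 was above Tek by 1.27 ± 0.05, a gap much wider than the spread of the libraries. Eng, a co-receptor for BMP and TGF-beta ligands, was at 22.57 and 26.04 TPM.

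Genes for surface and secreted proteins included the 2 highest of the general endothelial group, Egfl7 and Esam. Egfl7, which encodes a secreted protein of vessel sprouts and hosts the Mir126 microRNA gene, was at 59.53 and 59.01 TPM, above 86.3% of protein-coding genes. Its leading coding transcript held 36.1% and 38.2% of that TPM, and a retained-intron transcript of 536 bases held 19.3% and 16.4%. Esam, a junctional adhesion gene, was at 29.50 and 30.14 TPM. The adhesion gene Pecam1 stood at 17.64 and 20.08 TPM and the sialomucin gene Emcn at 14.92 and 19.04 TPM. Both of these were higher in replicate 2, while Egfl7 and Esam were nearly level. Cdh5, the endothelial cadherin gene, which is outside the 37, was at 11.31 and 13.47 TPM.

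The 4 transcription factor genes among the 13 ran from 3 to 16 TPM. The SoxF genes Sox18 and Sox17, which act in vessel and arterial development, were at 16.10 and 16.05 TPM and at 10.49 and 11.63 TPM. The ETS family genes Fli1 and Erg were at 14.59 and 12.14 TPM and at 3.30 and 2.74 TPM. Fli1 exceeded Erg by 2.15 on the log2 scale, and both were lower in replicate 2. Fli1 is also active in blood cells.

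A further list of 20 endothelial genes had 19 genes past 1 TPM in each library and a lower median, 11.2 ± 0.198 TPM. Its highest members were Ramp2, an adrenomedullin receptor subunit gene (62.17 and 57.90 TPM), Cd34 (38.18 and 41.10), Lmo2 (36.23 and 34.90) and Ets1 (25.70 and 28.89). Its lowest were Tal1, a blood and endothelial regulator at 2.62 and 2.40 TPM, and Etv2, which specifies the earliest endothelial precursors. Etv2 had no read in either library, where 3 reads would have given 0.151 and 0.146 TPM. Of 12 arterial and Notch genes 11 passed 1 TPM, led by Efnb2 (35.61 and 40.09 TPM), Notch1 (34.96 and 38.03), Hey1 (36.42 and 36.24) and Jag1 (22.68 and 24.91), all of which neural cells use as well. The lowest were Unc5b (2.81 and 2.34 TPM) and the endothelial kinase gene Bmx (0.28 and 0.20 TPM).

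Genes of particular vessel beds divided into 2 high and 2 low. Plvap, which encodes the diaphragm protein of fenestrated and leaky vessels, was at 32.62 and 38.45 TPM. Aplnr, the apelin receptor gene of venous and sprouting endothelium, was at 29.61 and 33.37 TPM. Lyve1, a hyaluronan receptor gene of lymphatic vessels and some macrophages, was at 3.13 and 3.45 TPM, near the level of Flt4. For Lyve1 the counts, 178 and 184, gave a log2 ratio of -0.04 after scaling, because TPM also carries the effective length estimated in each library. Among lymphatic and venous genes, the scavenger receptor gene Stab2 was at 0.14 and 0.16 TPM and the lymphatic regulator Prox1 at 13.83 and 14.68 TPM, though Prox1 is also a gene of neural precursors. All 10 macrophage genes were detected as well, with summed levels of 117.8 and 127.8 TPM and the Lyve1-positive macrophage gene Mrc1 at 2.91 and 3.67 TPM. Their part in the Lyve1 level was not tested.

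The barrier genes did not share a level. Cldn5, the main claudin of endothelial tight junctions, was at 44.99 and 42.93 TPM, the highest of the 9. The efflux transporter gene Abcg2 followed at 31.60 and 34.73 TPM, and Mfsd2a, a lipid transporter gene whose product limits vesicle transport across brain endothelium, at 16.74 and 17.35 TPM. These 3, and also Reck, lay within the range of the general endothelial genes, from 3.02 to 59.3 TPM. The Wnt7 co-receptor gene Reck was at 10.61 and 11.91 TPM, and its partner Adgra2 at 2.20 and 2.32 TPM, a log2 gap of 2.31 ± 0.06. Reck is also active in mesenchyme and neural precursors.

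The other 4 barrier genes were near or below 1 TPM. Slco1c1, a thyroid hormone transporter gene, was at 1.68 and 1.81 TPM, and Ocln, the occludin gene of tight junctions, at 1.43 and 1.29 TPM. Cldn5 exceeded Ocln by 5.02 ± 0.06 on the log2 scale, or 32.4-fold. Abcb1a, which encodes the efflux pump P-glycoprotein, was at 0.67 and 0.84 TPM from 57.26 and 71.52 estimated counts. Slco1a4, an organic anion transporter gene, rested on 4 counts in each library (0.05 and 0.17 TPM) and was too low for a comparison.

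The leaky-vessel gene Plvap therefore stood beside high barrier genes in the same libraries. Plvap exceeded Mfsd2a by 1.06 ± 0.13 on the log2 scale, in both libraries. Cldn5 exceeded Plvap by 0.46 in replicate 1 and 0.16 in replicate 2, a difference of 0.31 ± 0.22 that is close to the spread. Whole-tissue RNA does not show whether the same vessels carried both. The general endothelial median exceeded the barrier median by 2.93 ± 0.09 on the log2 scale, 7.64-fold. That gap depended on which barrier genes were counted: it was 0.88 without Adgra2, Reck and Ocln, and 0.62 over genes at 1 TPM or more in both libraries.

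Other barrier and Wnt genes were described from lists of related genes. Of 14 further barrier genes 13 passed 1 TPM in each library, and the median was 14.1 ± 1.35 TPM. The highest were Itm2a (153.25 and 147.12 TPM), the amino acid transporter chain gene Slc3a2 (113.09 and 116.21), the glucose transporter gene Slc2a1 (95.24 and 100.95) and Slc7a5 (25.03 and 32.16), most of which are also used outside vessels. The lowest were Marveld2, a tricellular junction gene (1.21 and 1.63 TPM), and Abcb1b (0.58 and 0.70 TPM), a close paralog of Abcb1a with which shared reads were divided by an estimate. All 12 genes of the Wnt and Norrin signal passed 1 TPM. Its general transducer Ctnnb1 was at 461.26 and 488.41 TPM, the ligand gene Wnt7b at 78.07 and 71.26 and Tspan12, a Norrin co-receptor gene, at 49.30 and 49.10, while the receptor genes Fzd4 (2.13 and 2.31 TPM) and Lrp5 (2.11 and 2.23 TPM) were lowest.

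**Figure D2:**
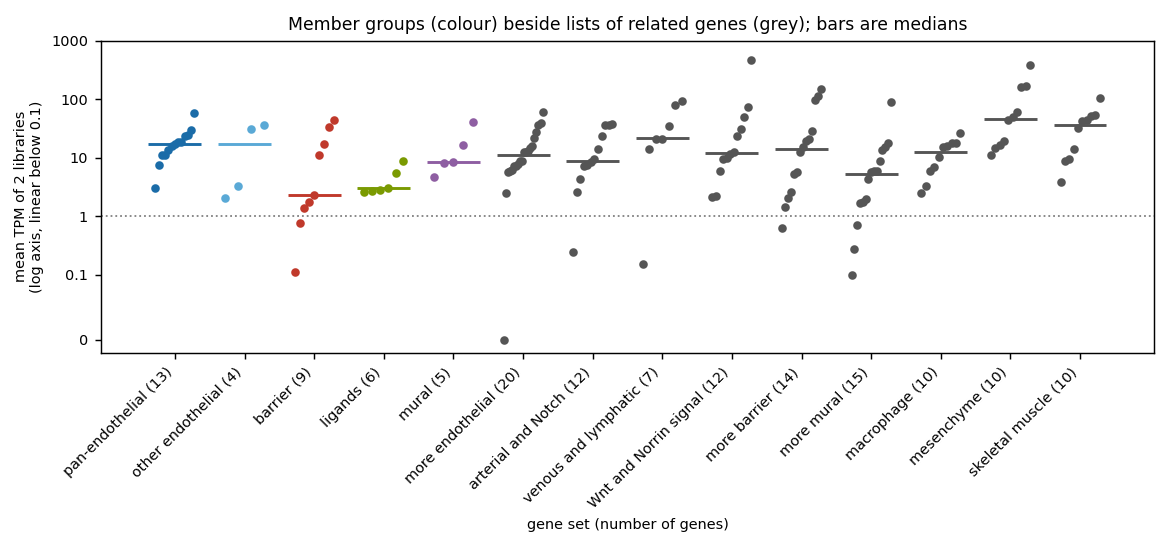
Mean TPM of 2 libraries for each gene (dots) in the 5 member groups (colours) and in lists of related or neighbouring cell types (grey), on a log axis that is linear below 0.1; bars are medians and the dotted line is 1 TPM. The barrier group has a lower median (2.26 TPM) than the list of further barrier genes (14.1 TPM), and 1 further endothelial gene, Etv2, lies at 0.

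The vascular growth factor genes were all below 10 TPM. Angpt1, the angiopoietin gene that activates Tek and is made by mural and mesenchymal cells, was highest at 8.22 and 9.12 TPM. Angpt2, which endothelium makes and which can oppose Angpt1, was at 3.23 and 2.23 TPM. Angpt1 exceeded Angpt2 by 1.35 in replicate 1 and by 2.03 in replicate 2. A noncoding Angpt2 transcript of 652 bases held 35.2% and 40.7% of the Angpt2 TPM, from 13.2 and 10.9 counts. Vegfc, the lymphatic growth factor gene, was at 4.77 and 6.23 TPM and Vegfa at 3.24 and 2.71 TPM. Vegfc thus exceeded Vegfa by 0.88 ± 0.45, with the 2 libraries at 0.56 and 1.20.

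By gene level, Vegfa was lower than its receptor genes Kdr and Flt1, Angpt2 lower than Tek, and Apln and Pdgfb lower than the genes of their receptors. The full-length Flt1 transcript alone was at 2.34 and 3.21 TPM, near the Vegfa gene at 3.24 and 2.71 TPM. Angpt1 was near Tek, and Vegfc was above the VEGF-C receptor gene Flt4 but below Kdr. Apln, the apelin gene of endothelial tip cells, was at 2.90 and 2.81 TPM, and its receptor gene Aplnr exceeded it by 3.46 ± 0.15 on the log2 scale. Pdgfb, the endothelial ligand gene for pericytes, was at 2.62 and 2.59 TPM, and Pdgfrb exceeded it by 2.69 ± 0.10. Among 8 related genes the hypoxia regulator Hif1a (90.49 and 98.30 TPM), the co-receptor gene Nrp1 (82.50 and 92.66), Vhl (51.12 and 51.09) and Vegfb (29.60 and 26.59) were highest. The placental growth factor gene Pgf was at 7.57 and 8.63 TPM, and Vegfd, at 0.56 and 0.64 TPM, was lowest.

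The mural genes were led by a smooth muscle actin gene. Acta2 was at 47.28 and 35.52 TPM, lower in replicate 2. Tagln, another smooth muscle gene that encodes an actin-binding protein, was at 8.68 and 7.96 TPM. The pericyte receptor gene Pdgfrb was at 16.10 and 17.51 TPM and Rgs5, a G protein regulator gene of pericytes, at 8.02 and 8.36 TPM, close to each other across libraries. Anpep, a peptidase gene of pericytes and other cells, was at 4.10 and 5.25 TPM. The general endothelial median exceeded the mural median by 1.02 ± 0.18 on the log2 scale, 2.03-fold.

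Of 15 further mural genes 12 passed 1 TPM in each library, and the median was 5.28 ± 0.184 TPM. The highest were Vtn (85.16 and 91.18 TPM), the Notch target gene Heyl (15.76 and 19.44), Mcam (15.00 and 15.28) and the pericyte receptor gene Notch3 (13.59 and 13.65). The smooth muscle myosin gene Myh11 was at 0.33 and 0.21 TPM and the pericyte gene Higd1b rested on 1 count in each library. Other cell types that use mural genes were also in the tissue. The 10 mesenchyme genes all passed 10 TPM in each library and summed to 914.3 and 945.3 TPM. The 10 skeletal muscle genes all passed 1 TPM and summed to 418.7 and 306.4 TPM. Their part in the mural levels was not tested.

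The 2 libraries gave closely similar values for most of the 37 genes. For each gene with at least 10 estimated counts in either library, scaled counts of replicate 2 were divided by those of replicate 1 on the log2 scale, with a 95% exact interval that covers counting error only. Of 36 genes compared, 1 lay past 1.5-fold, beside 11.2% of the 20125 genes compared in all and 1.32% of those with a mean of at least 100 counts. The median of the 36 ratios was 0.05, against -0.00 over all genes, with 24 genes higher and 12 lower in replicate 2. Over all genes compared 10028 were higher and 10097 lower, and over those with a mean of at least 100 counts 7041 and 6402. The median size of the ratio was 0.11, against 0.13 over all genes and 0.09 over the 13443 genes with a mean of at least 100 counts, a range that holds 34 of the 36. The interval left out 0 for 12 of the 36, beside 30.6% of all genes.

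The gene past 1.5-fold was Angpt2, lower in replicate 2. Its 165 and 110 counts gave a log2 ratio of -0.66 (interval -1.04 to -0.32), where 6.63% of all genes lay past 1.5-fold in that direction and 4.57% in the other. Past 1.25-fold, a limit added after the values were seen, there were 3 more genes, beside 23.3% of all genes (10.1% higher and 13.2% lower in replicate 2) and 7.08% of genes with a mean of at least 100 counts. They were Vegfc at 0.40 (0.13 to 0.68), Acta2 at -0.45 (-0.55 to -0.35) and Tagln at -0.34 (-0.61 to -0.08). Tagln was inside 1.25-fold in other settings: -0.29 with the GENCODE M4 tables, -0.29 with ERCC scaling and -0.11 on log2(TPM + 1). Acta2 was at -0.45, -0.39 and -0.40 in the same 3 settings. With 1 library on each side there is no test of these differences.

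The muscle gene lists differed between the libraries in the same direction as Acta2 and Tagln. Each of the 10 skeletal muscle genes was lower in the second pool (median log2 ratio -0.46), including Actc1 (123.98 and 83.80 TPM) and Acta1 (61.12 and 44.42 TPM). Of 6 heart genes compared 5 were lower, with a median of -0.60. Pdgfrb and Rgs5 had ratios of 0.08 and 0.02. Of 14 further mural genes compared 9 were lower and 5 higher, with a median of -0.13; 2 were past 1.5-fold, beside 6.63% of all genes in that direction. They were the smooth muscle genes Myh11 (-0.65, 44 and 29 counts) and Cnn1 (-0.95, 29 and 15 counts), the latter named after its values were seen. Few reads made their counting intervals wide, at -1.42 to 0.02 for Myh11 and -2.05 to -0.09 for Cnn1. The part of muscle RNA in the Acta2 and Tagln values was not tested.

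**Figure D3:**
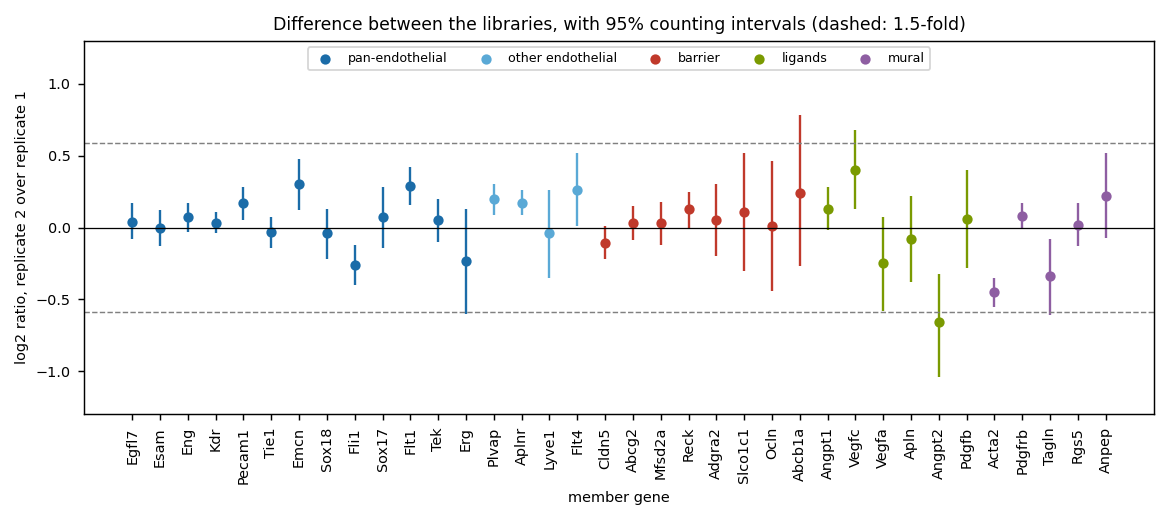
Log2 ratio of replicate 2 over replicate 1 for the 36 genes compared, from scaled estimated counts; vertical lines are 95% counting intervals, the solid line is 0 and dashed lines mark 1.5-fold. Angpt2, at -0.66, is the only point of the 36 past a dashed line.

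At the level of transcripts, 14 of the 37 genes had a leading transcript that held at least 90% of the gene's TPM in both libraries, and 34 had the same leading transcript in both. Apln, Cldn5, Plvap and Sox18 are among the 14 because only 1 transcript is annotated for each, and Rgs5 gave all its TPM to 1 of 2. The leading Kdr transcript held 99.1% and 98.8% of the Kdr TPM. In other genes several transcripts shared the reads, and such shares are estimates.

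Flt1 (chr5:147561604-147726011, minus strand, mm10) divided most of its reads, but not all, between transcripts of the full receptor and of the truncated, secreted form. The full-length transcript, with 30 exons and 1333 codons, held 37.6% of the gene's counts in replicate 1 and 41.1% in replicate 2. The truncated transcript, with 13 exons and 688 codons, held 41.1% and 37.3%. The means of 39.3% ± 2.52 and 39.2% ± 2.70 (SD, n = 2) differed by less than the spread. A noncoding transcript held 20.8% ± 0.293 of the counts but 46.2% ± 0.585 of the TPM, being shorter. The coding sequences of the truncated and full-length transcripts are shared for 1972 bases and then part. The 30 bases before that point are in lower case, and the bases that differ follow in capitals, to the stop codon for the truncated transcript and for 90 bases for the other (GENCODE M21).
Flt1 truncated: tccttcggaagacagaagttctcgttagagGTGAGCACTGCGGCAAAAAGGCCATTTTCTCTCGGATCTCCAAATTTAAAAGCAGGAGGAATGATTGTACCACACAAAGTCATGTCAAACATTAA
Flt1 full-length: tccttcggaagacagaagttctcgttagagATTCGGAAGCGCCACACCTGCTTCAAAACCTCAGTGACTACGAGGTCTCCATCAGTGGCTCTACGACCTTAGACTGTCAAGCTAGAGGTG

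Vegfa (chr17:46016993-46032369, minus strand) gave most of its counts to a long coding transcript. The long transcript, with 368 codons, held 57.5% of the counts in replicate 1 and 71.5% in replicate 2. The short transcript, with 146 codons and without the stretch that binds heparin, held 38.2% and 23.0%. These shares rested on 96.6 and 107 counts and on 64.2 and 34.5 counts, so their error is large. The shared coding sequence is 419 bases long. After it the long transcript has 154 coding bases, so its other additional codons lie before the shared part. The lines below give the last 30 shared bases in lower case and what follows in capitals. They run to the stop codon for the short transcript and for 90 bases for the long transcript.
Vegfa short: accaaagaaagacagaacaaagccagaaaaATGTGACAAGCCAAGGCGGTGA
Vegfa long: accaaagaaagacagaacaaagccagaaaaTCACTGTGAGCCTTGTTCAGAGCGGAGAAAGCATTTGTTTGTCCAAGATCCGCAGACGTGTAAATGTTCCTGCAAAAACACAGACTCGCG

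Abcg2 (chr6:58584523-58695676, plus strand) was read mainly from its downstream start. The 6 annotated transcripts that begin between positions 58640546 and 58640582 held 83.5% and 83.7% of its counts, led by a transcript with 657 codons. A transcript that begins upstream, at position 58596671, held 12.6% and 11.8%. An annotated transcript of 348 bases held 3.56% ± 0.805 of the counts but 23.3% ± 4.56 of the TPM, so the Abcg2 level in TPM owes much to a short transcript. Abcg2 is also known from red cell precursors, whose 10 marker genes summed to 13296.2 and 12778.4 TPM, and their part in its level was not tested.

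**Figure D4:**
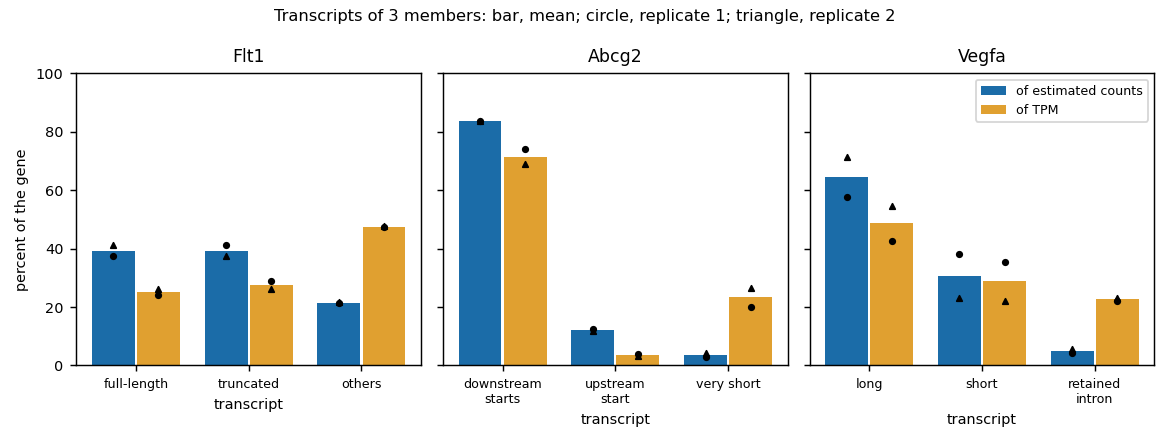
Share of each gene's estimated counts (blue) and TPM (orange) held by transcripts of Flt1, Abcg2 and Vegfa; bars are means of 2 libraries, circles replicate 1 and triangles replicate 2. The full-length and truncated Flt1 transcripts have nearly equal shares of the counts (39.3% and 39.2%), and the downstream starts of Abcg2 hold 83.6%.

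Promoters were read from RefSeq on GRCm38.p6, whose table held 31 windows for 23 of the 37 genes. Shown are the 250 bases before the start of Kdr, Cldn5 and the downstream start of Abcg2, a receptor gene and the 2 highest barrier genes; Kdr and Abcg2 were chosen after their values were seen. Capitals mark GGAA, the core that ETS factors such as Fli1 and Erg bind, or TTCC, the same letters on the other strand. The Kdr window (chr5:75978456-75978705, minus strand) holds 4 matches, and 33.4% of all 32851 windows hold as many or more. The Abcg2 window (chr6:58640296-58640545, plus strand) holds 2, and 76.8% of windows hold as many or more; the Cldn5 window (chr16:18776597-18776846, plus strand) holds none.
Kdr: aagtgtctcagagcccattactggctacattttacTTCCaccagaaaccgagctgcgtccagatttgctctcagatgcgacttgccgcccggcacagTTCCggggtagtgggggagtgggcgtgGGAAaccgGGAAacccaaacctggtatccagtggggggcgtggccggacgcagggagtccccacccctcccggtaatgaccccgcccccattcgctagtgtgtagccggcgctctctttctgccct
Cldn5: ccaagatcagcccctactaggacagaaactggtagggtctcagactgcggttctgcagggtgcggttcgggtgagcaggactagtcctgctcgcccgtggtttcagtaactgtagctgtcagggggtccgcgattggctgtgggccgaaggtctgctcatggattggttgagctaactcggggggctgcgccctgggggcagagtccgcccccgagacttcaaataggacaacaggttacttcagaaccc
Abcg2: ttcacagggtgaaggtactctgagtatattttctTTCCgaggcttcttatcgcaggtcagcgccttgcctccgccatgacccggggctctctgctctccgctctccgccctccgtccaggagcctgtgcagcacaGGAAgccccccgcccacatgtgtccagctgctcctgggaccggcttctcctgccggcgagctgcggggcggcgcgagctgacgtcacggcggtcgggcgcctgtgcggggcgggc
Over the 250 bases before each start, GGAA on either strand was in 93.5% of the 31 windows and in 93.4% of all windows. The CArG box, the element of serum response factor, was in 0 of the 31 and in 1.47% of all. The start of 15 of the 31 windows lies within 50 bases of the start of the gene's leading transcript; the Acta2 window starts 217 bases from it, and Tagln has no window. A match describes letters and not binding, and no match speaks only of this window.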

How the data were processed

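The notes deposited by the authors state alignment to the mm10 transcriptome and quantification against GENCODE M21 and M4. The names and versions of the aligner and quantifier were not given in the sources used here. The authors deposited estimated counts, which share out reads that match several genes and need not be whole. The deposited TPM divides those counts by effective length and scales them to a fixed sum, and the deposited percent of each transcript is its share of the gene's TPM, per the file headers. The M21 tables were used and the M4 tables served as an alternative; gene names and positions came from GENCODE M21 (mm10).

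Levels are given per library or as mean ± SD over 2 libraries, which measures only the spread between these pools. Estimated counts were rounded and scaled by TMM in edgeR 4.0.16 (R 4.3.3) over the 20125 genes that reached 10 counts in a library, with a prior count of 2 for log2 ratios. Intervals are exact binomial (Clopper-Pearson, 95%), and PCR copies count as reads. The scripts (Python 3.11.15, pandas 2.3.3, scipy 1.17.1) were tested on simulated data. No strand-specific step is stated, so overlapping genes on opposite strands cannot be told apart; 7 of the 37 genes overlap another gene (Abcb1a, Adgra2, Angpt1, Egfl7, Eng, Sox17 and Tagln). Egfl7, Sox17, Abcb1a, Angpt1 and Tagln had a deposited posterior SD above 0.

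The genes, the 13 lists and the tests were chosen with earlier results of these data known. Named are all 37 genes, Cdh5 and up to the 4 highest and 2 lowest of each list. Transcripts that lead or hold at least 10 percent in both libraries, for genes at 5 TPM or more, are described only in part. Those of Pecam1, Eng, Emcn, Fli1, Tek and Sox17 are among those left out. The Vegfa, Egfl7 and Angpt2 transcripts and the grouping of Abcg2 starts were chosen after their values were seen, as were Actc1 and Acta1 beside Acta2. Alternatives are M4 tables, other thresholds, group makeup, scaling, filter, prior count and leaving out a library.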

Additional observations from a re-analysis of the deposited data

How the results depend on the processing

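The count of 35 genes at 1 TPM or more in both libraries was 35 with the M4 tables and in each library alone (35 to 35 with 1 library left out), 36 at 0.5 TPM and 23 at 5 TPM. The log2 gap of the general endothelial over the barrier median, 2.93, was 2.91 with M4 and 2.87 to 3.00 with 1 library left out. With genes left out it was 0.88 (without Adgra2, Reck and Ocln) and 0.62 (over genes at 1 TPM or more in both). It was 1.45 as a difference of means of log2(TPM + 1) and 2.49 as a difference of medians on that scale, the last chosen after seeing the data. The gap over the mural median, 1.02, was 0.89 to 1.15 with 1 library left out and 0.39 as a difference of means of log2(TPM + 1). The count past 1.5-fold, 1 gene, was 1 under DESeq2 size factors, ERCC scaling, M4 tables, no filter and a prior count of 0.5, 0 on log2(TPM + 1) and 4 at a fold of 1.25, chosen after seeing the data. The cause of the changes on log2(TPM + 1) was not tested. ERCC scaling moved the median of all genes by 0.05. Of 14 ratios between genes, 1 moved by more than the spread with the M4 tables and 7 did on log2(TPM + 1), and 0 changed sign; leaving out 1 of 2 libraries cannot move a mean past its SD and is no check of these ratios or gaps. No paired analysis was possible because there is 1 group. Slco1a4, Abcb1a, Ocln, Slco1c1, Angpt2, Erg, Pdgfb and Vegfa rest on the fewest reads.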

Other observations

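Of 7 venous and lymphatic genes 6 passed 10 TPM in each library, beside 41.7% of protein-coding genes, led by Pdpn (94.50 and 91.34 TPM) and Nr2f2, the venous regulator (79.08 and 81.63), both of which have other sources in the tissue, followed by Nrp2 (34.43 and 35.16) and the venous Eph receptor gene Ephb4 (20.01 and 22.18). The arterial gap junction gene Gja5 was at 9.13 and 5.47 TPM, a log2 ratio of -0.70 in replicate 2 over replicate 1, while its relative Gja4 was at 13.37 and 15.33 TPM; both were singled out after their values were seen, and Gja5 is also a heart gene.

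Astrocytes, whose endfeet cover vessels of the mature barrier, were represented unevenly by 6 genes, of which 4 passed 1 TPM in each library. Gfap rested on 3 and 5 counts (0.06 and 0.09 TPM) and the endfoot water channel gene Aqp4 was at 0.53 and 0.44 TPM. Gja1 (103.28 and 100.65 TPM) and Slc1a3 (65.23 and 67.25 TPM), which neural progenitors also use, were the highest. In the tricellular junction gene Marveld2, 63 and 102 counts gave a log2 ratio of 0.59, just past 1.5-fold, as for 1 of the 14 further barrier genes and, in that direction, 4.57% of all genes.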
